A study of Mus musculus with 81 samples.

Results

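The genes described here are 7 components of cytosolic RNA sensing: Ddx58 (RIG-I), Ifih1 (MDA5), Dhx58 (LGP2), Mavs, Eif2ak2 (PKR), Zbp1 and Adar. They were taken by gene symbol from the 55603 genes of the deposited count tables, and earlier results of these data were known when they were chosen. RIG-I and MDA5 are helicases that bind viral or endogenous double-stranded RNA and pass the signal to MAVS on the mitochondrial surface, which leads through kinases and IRF transcription factors to type I interferon, and LGP2, a related helicase without the signalling domain, tunes both of them. PKR stops translation when it binds double-stranded RNA, ZBP1 binds left-handed nucleic acid and can start RIPK3-dependent cell death, and ADAR edits adenosine to inosine in double-stranded RNA, which keeps endogenous RNA from being sensed. Several of these genes are themselves interferon-stimulated in macrophages, so that sensing and interferon signalling form a loop.

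RNA-seq was available for 81 mouse libraries of macrophages and their culture precursors, 79 of which could be placed in 1 of 27 groups. WT mice were H3f3a fl/fl H3f3b fl/fl, and cKO mice carried the same floxed alleles together with LysM cre/cre, a design meant to delete both genes for the replacement histone H3.3 where the Lyz2 promoter drives Cre, that is in myeloid cells. The floxed alleles are therefore shared by WT and cKO, whereas Cre and the loss of Lyz2 are present only in the cKO and double KO lines. The 3 double KO lines were cKO mice with a germline KO of Sting, Mavs or Irf7. Bone marrow-derived macrophages (BMDMs) were grown from adult C57BL/6 marrow in L929-conditioned medium, and libraries were made at days 3, 5 and 7 of culture, at day 8 with or without 12 h of IFNγ, in cultures given no antibody, a control antibody or an antibody against the type I interferon receptor subunit IFNAR1, in 3 further sets of WT and cKO BMDMs, in the double KO BMDMs, and in peritoneal macrophages. Each group held 3 libraries, except cKO day 8 and cKO day 8 with IFNγ, which held 2 each because 1 library of each had a title and a library name that contradicted each other. The labels call the libraries biological replicates without naming the animals, so p-values measure only the spread between libraries.

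Libraries held between 3614967 and 45564225 counts, and all 7 genes passed the filter on low counts in each of the 5 experiments. H3f3a stood between 33.6 and 93.8 CPM (counts per 1000000, scaled within an experiment) in WT and between 1.21 and 15.3 CPM in cKO and double KO libraries. H3f3b, counted over the whole gene, was at 16.7 to 67.8 CPM in cKO against 295 to 468 CPM in WT of the antibody experiment, but at 175 to 222 CPM in cKO against 222 to 249 CPM in WT at day 3. It was called lower in cKO in the 3 genotype comparisons of the antibody experiment, and in the other 9 it differed by -0.41 to -0.16 on the log2 scale without passing (edgeR, adjusted p between 0.127 and 0.916), so the counts do not show its deletion there, whereas H3f3a was called lower in all 12. The study reports H3.3 depletion in cKO BMDMs by qRT-PCR and western blot. It describes the efficiency of H3f3b deletion as apparently variable, from partial to complete. Each of the 6 macrophage markers (Csf1r, Adgre1, Cd68, Itgam, Mertk and Fcgr1) passed the filter in every experiment. Markers of other cells were also present: the 6 neutrophil genes summed to between 1154 and 2355 CPM in WT and between 2011 and 3109 CPM in cKO at day 3, and to at most 200.4 CPM at day 7.

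Ddx58 lies on chromosome 4 (chr4:40203773-40239828, minus strand), Ifih1 on chromosome 2 (chr2:62595798-62646255, minus strand), Dhx58 on chromosome 11 (chr11:100694884-100704271, minus strand), Mavs on chromosome 2 (chr2:131234063-131248025, plus strand), Eif2ak2 on chromosome 17 (chr17:78852564-78882573, minus strand), Zbp1 on chromosome 2 (chr2:173206612-173218923, minus strand) and Adar on chromosome 3 (chr3:89715022-89753446, plus strand), all in GRCm38. All 7 are protein-coding genes and their counts cover all annotated exons. Counts were not split by strand, and Adar shares 1365 exon bases with the opposite-strand gene Chrnb2, Eif2ak2 shares 221 with short RNA genes and Dhx58 shares 141 with Dhx58os, so reads from these stretches cannot be assigned to 1 gene with certainty. Counts of the whole Adar gene do not separate its long, interferon-inducible form from its constitutive form.

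Promoter windows from RefSeq (GRCm38.p6, 250 bases before to 50 after each annotated start) were on hand for 5 of the 7 genes. They are shown as a description of the genes, and their part in the comparisons that follow was not tested. The interferon-stimulated response element, searched on both strands as a direct repeat of GAAA spaced by 2 bases, was present in 3.44% of the 32851 windows of all genes, and in the windows of Ddx58, Ifih1 and Eif2ak2 but not of Mavs or Adar. The shorter IRF core AANNGAAA, chosen after the data were seen, overlaps the former motif and was in 23.9% of windows. It was also found in Adar window 3, but not in Adar windows 1 and 2, and again upstream of the Ddx58 start. Neither motif was found in the Mavs window. TTCNNNGAA, the letters of the gamma-activated site, was in 8.3% of windows and in those of Eif2ak2 and Adar. A match of letters is a description of the window and not evidence of a bound site. The stretch upstream of the Ddx58 start (chr4:40239829-40240075, minus strand, IRF core in capitals) and that upstream of the Mavs start (chr2:131233813-131234062, plus strand, no match), followed by 30 bases around the match in the first transcribed bases of Ddx58 (chr4:40239804-40239833, minus strand), Ifih1 (chr2:62646206-62646235, minus strand), Eif2ak2 (chr17:78882535-78882564, minus strand) and start 3 of Adar (chr3:89730736-89730765, plus strand), read 5′ to 3′ as follows, with the longer motif in capitals for Ddx58, Ifih1 and Eif2ak2 and the IRF core for Adar.
Ddx58 upstream: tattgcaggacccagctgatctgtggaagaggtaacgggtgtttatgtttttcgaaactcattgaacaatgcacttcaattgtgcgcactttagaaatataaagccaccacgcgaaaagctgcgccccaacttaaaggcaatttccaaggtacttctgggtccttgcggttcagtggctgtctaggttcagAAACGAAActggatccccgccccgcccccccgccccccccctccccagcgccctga
Mavs upstream: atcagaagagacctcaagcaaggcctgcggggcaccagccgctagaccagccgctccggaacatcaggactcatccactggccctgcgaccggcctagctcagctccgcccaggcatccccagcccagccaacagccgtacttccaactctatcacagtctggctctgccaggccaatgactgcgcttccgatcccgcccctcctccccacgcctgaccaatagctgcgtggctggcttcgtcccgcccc
Ddx58 start: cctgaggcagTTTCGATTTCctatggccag
Ifih1 start: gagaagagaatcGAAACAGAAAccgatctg
Eif2ak2 start: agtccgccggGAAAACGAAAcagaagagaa
Adar start 3: ccttttcaaggAAACGAAAgtgaactctgg

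The 7 genes differed in their level in WT cells. Per kilobase of exon, Mavs led in WT progenitors at day 3 with 11.9 ± 0.88 CPM per kb (mean ± SD, n = 3), ahead of Eif2ak2 at 6.68 ± 1.14 and Adar at 6.63 ± 0.72, which overlapped. Dhx58 followed at 3.23 ± 0.59, then Ifih1 at 2.49 ± 0.15 and Ddx58 at 2.16 ± 0.090, and Zbp1 was last at 0.334 ± 0.089 CPM per kb. In cKO progenitors of the same day the order was turned around, with Ddx58 first at 27.4 ± 4.46 and Mavs last at 9.51 ± 0.98 CPM per kb, although all neighbours from Ddx58 down to Ifih1 overlapped in their libraries. After IFNγ, WT macrophages held 149.5 ± 12 CPM per kb of Zbp1 and 11.8 ± 0.90 of Mavs, the highest and the lowest of the 7. Across the 27 groups Mavs was the highest of the 7 in 9 groups and the lowest in 9 others, and Zbp1 was the lowest in 12. In peritoneal macrophages of WT mice Mavs and Zbp1 led at 19 ± 1.41 and 14 ± 5.45 CPM per kb, and Eif2ak2 was last at 4.81 ± 1.5.

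The first comparison asked how RNA sensing genes differed between cKO and WT cells during macrophage differentiation. Loss of H3.3, Cre and loss of Lyz2 come together in the cKO and cannot be told apart. At day 3, 6 of the 7 genes were higher in cKO than in WT progenitors, where 5.19% of the 15955 genes tested were called higher, and Mavs was not called. The 6 rose between 3.32-fold and 63.9-fold. All 3 cKO libraries lay above all 3 WT libraries for each of the 6, which held for 18.3% of all genes tested. Over the 7 genes the median log2 fold change was 2.47, against 0.04 over all genes tested.

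Among the helicases, Ddx58 stood at 15.8, 14.5 and 15.3 CPM in the WT libraries at day 3 and at 186, 166 and 228 CPM in the cKO libraries. All cKO values were thus more than an order of magnitude above WT, with a log2 fold change of 3.67 ± 0.52 (SE; edgeR quasi-likelihood test, adjusted p = 0.000594). Ifih1 was at 21.7, 19.5 and 19.8 CPM in WT and at 103, 104 and 130 CPM in cKO, a log2 fold change of 2.47 ± 0.40 (adjusted p = 0.00149). Dhx58 was at 12.5, 10.5 and 8.70 CPM in WT and at 83.5, 76.6 and 94.0 CPM in cKO, a log2 fold change of 3.0 ± 0.47 (adjusted p = 0.00107). The 3 WT libraries were close to each other for all 3 helicases, and no cKO library reached down to them. Mavs, the adaptor of the helicases, was at 37.3, 43.1 and 39.3 CPM in WT and at 28.2, 32.6 and 34.6 CPM in cKO. Its groups did not overlap, with cKO the lower (15.8% of genes did the same), but the difference of -0.32 ± 0.13 on the log2 scale did not pass (adjusted p = 0.137).

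The effectors and the editor followed the helicases at day 3. Eif2ak2, the kinase that phosphorylates eIF2α, was at 40.4, 33.2 and 28.9 CPM in WT and at 97.8, 105 and 137 CPM in cKO (log2 fold change 1.73 ± 0.27, adjusted p = 0.00118). Adar was at 60.5, 51.7 and 49.4 CPM in WT and at 191, 176 and 199.8 CPM in cKO (1.81 ± 0.23, adjusted p = 0.000315), the smallest adjusted p of the 7. Zbp1 was close to absent in WT progenitors, with 18, 25 and 15 counts or 1.23, 1.47 and 0.842 CPM, and was at 97.9, 50.6 and 77.8 CPM in cKO. Its log2 fold change of 6.0 ± 1.13 (adjusted p = 0.00387) was the largest of the 7 and ranked 54 among all genes tested. Among other cell markers in the same libraries, the 4 B cell genes summed to between 9.77 and 10.7 CPM in WT and between 22.4 and 44.4 CPM in cKO. The neutrophil sums, given above, overlapped between the genotypes. So did those of the stromal genes, of which 3 of 4 passed the filter, at 7.29 to 42.5 CPM in WT and 24.0 to 65.8 CPM in cKO. The part of these markers in the result was not tested, and in bulk libraries fewer cells of a type and less RNA per cell cannot be told apart.

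**Figure D1:**
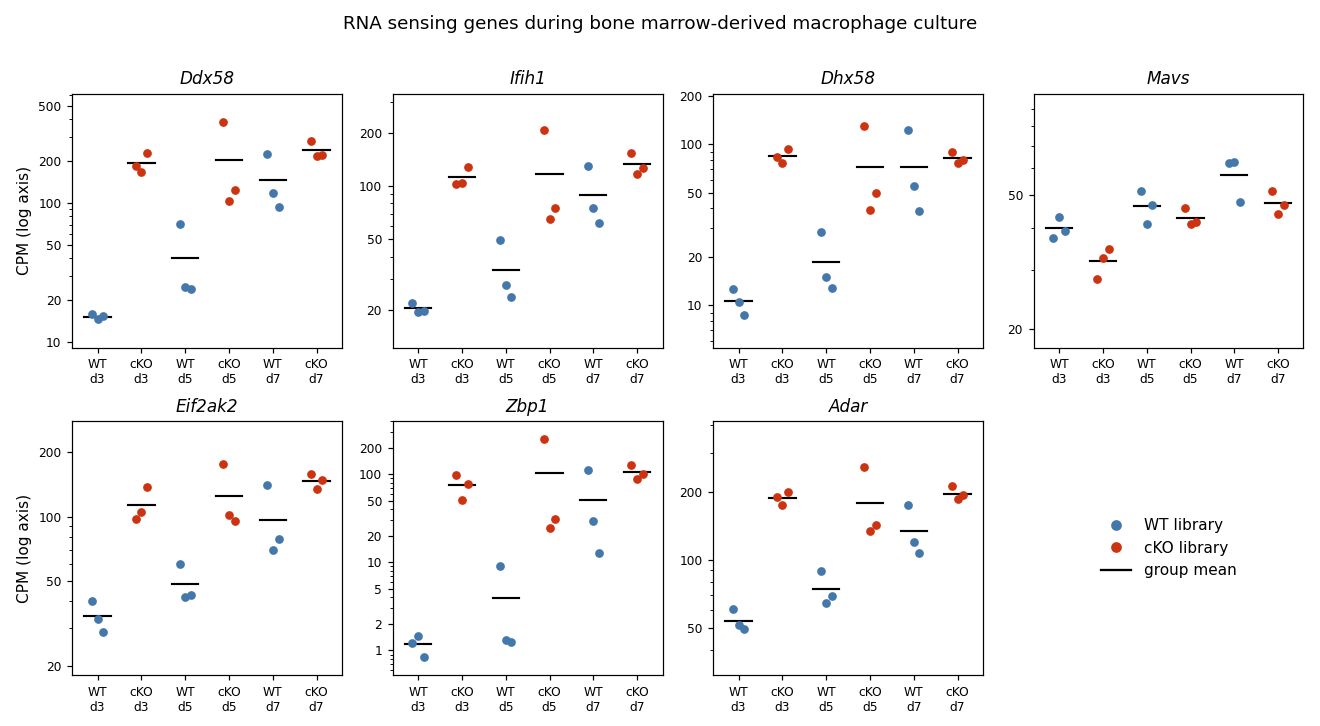
CPM (log axis) of each of the 7 genes in each library at days 3, 5 and 7 (blue, WT; red, cKO; black bar, group mean; 3 libraries a group). The WT points of 6 genes climb from day 3 to day 7 toward the cKO points, while Mavs stays between 28.2 and 62.5 CPM in all 18 libraries.

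In WT cells the RNA sensing genes rose as culture went on. From day 3 to day 7 all 7 genes rose in WT, where 12.3% of genes were called higher, with log2 fold changes of 3.26 ± 0.51 for Ddx58, 2.14 ± 0.40 for Ifih1, 2.78 ± 0.47 for Dhx58, 0.53 ± 0.13 for Mavs, 1.5 ± 0.27 for Eif2ak2, 5.43 ± 1.11 for Zbp1 and 1.32 ± 0.23 for Adar. Ddx58 reached 227, 118 and 94.0 CPM in the WT libraries at day 7. Zbp1 reached 111, 29.2 and 12.8 CPM, a spread of almost an order of magnitude in which replicate 1 was the highest. Without that library the Zbp1 log2 fold change was 4.14 and that of Dhx58 2.14, and both were still called. In cKO cells only Mavs rose between the same days, from a mean of 31.8 to 47.2 CPM (log2 fold change 0.57 ± 0.13, adjusted p = 0.00724), where 6.32% of genes were called higher. That call was lost without replicate 1 of cKO day 3 (adjusted p = 0.0515). The other 6 genes had log2 differences between -0.05 and 0.48 in cKO.

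At day 5, 6 of the 7 genes were again higher in cKO (2.2% of all genes were called higher), and Mavs differed by -0.11 ± 0.13. The log2 fold changes were 2.35 ± 0.49 for Ddx58, 1.80 ± 0.39 for Ifih1, 1.96 ± 0.45 for Dhx58, 1.36 ± 0.27 for Eif2ak2, 4.72 ± 1.01 for Zbp1 and 1.27 ± 0.23 for Adar, with adjusted p between 0.00861 and 0.027. Zbp1 was at 9.19, 1.33 and 1.24 CPM in WT and at 250.1, 24.7 and 31.3 CPM in cKO. In both genotypes replicate 1 stood far above the other libraries of its group, and for all 6 genes the genotypes did not overlap (15.4% of genes). Without WT replicate 2 or WT replicate 3 of day 5 none of the 6 calls remained (edgeR, adjusted p between 0.056 and 0.139), and without cKO replicate 1 only Adar was called (0.92). Without that cKO library the log2 fold change was 2.87 for Zbp1, 1.53 for Ddx58, 1.27 for Dhx58, 1.08 for Ifih1 and 1.04 for Eif2ak2. With edgeR fitted on the day 5 libraries alone none was called either, with the fold changes almost as above. Stromal genes summed to between 12.5 and 40.5 CPM in WT and between 65.5 and 90.7 CPM in cKO at day 5, and neutrophil genes to between 353 and 432 CPM in WT and between 380.3 and 1275 CPM in cKO, and their part was not tested.

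At day 7 the genotypes were no longer separated by the test. None of the 7 genes was called with edgeR (0.871% of all genes were called higher), 3 had an unadjusted p under 0.05 (16.5% of all genes did), and DESeq2 called 0. The log2 differences were 0.72 ± 0.46 for Ddx58, 0.58 ± 0.38 for Ifih1, 0.18 ± 0.43 for Dhx58, -0.28 ± 0.13 for Mavs, 0.61 ± 0.27 for Eif2ak2, 1.04 ± 0.84 for Zbp1 and 0.55 ± 0.22 for Adar. Adar alone did not overlap between the genotypes (9.5% of genes had cKO higher without overlap), with 176, 120.1 and 108 CPM in WT and 212, 186 and 194 CPM in cKO. Zbp1 was at 127, 88.4 and 100.2 CPM in cKO, against a WT range of 12.8 to 111 CPM, which overlapped. Without replicate 1 of every time-course group, an alternative chosen after the data were seen, 5 of the 7 were called at day 7, Ddx58, Ifih1, Eif2ak2, Zbp1 and Adar. Without WT day 7 replicate 1 alone, Eif2ak2 was called (edgeR, adjusted p = 0.0378). The shares of all genes called without these libraries are not reported here. Stromal sums were separated at day 7 too, at 4.33 to 40.1 CPM in WT and 86.1 to 123 CPM in cKO.

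Whether the cKO effect itself changed from day 3 to day 7 was tested as an interaction. The difference of the log2 fold changes was -2.95 ± 0.67 for Ddx58, -1.89 ± 0.54 for Ifih1, -2.83 ± 0.62 for Dhx58, 0.04 ± 0.18 for Mavs, -1.12 ± 0.38 for Eif2ak2, -4.95 ± 1.37 for Zbp1 and -1.26 ± 0.32 for Adar. With edgeR 0 of the 7 were called (0.0439% of all genes were), with adjusted p between 0.0751 and 0.925, whereas 6 had an unadjusted p under 0.05 (15.5% of all genes did) and DESeq2 called 5. With the replicate number as a block in edgeR, 5 were also called, all but Mavs and Eif2ak2 (adjusted p between 0.0111 and 0.044). The numbers do not clearly pair these libraries. At day 7 the same-numbered WT and cKO correlations went down to 0.153, and those of differently numbered libraries up to 0.359. Shares of all genes called by DESeq2 and with the block are not reported here.

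Of 68 other genes of the wider RNA sensing pathway, listed by role, 62 could be tested at day 3, of which 9 were higher (5.19% of all genes were) and 0 lower in cKO with edgeR, at a median log2 fold change of 0.15. The helicase cofactor Ddx60 rose most among the 10 RIG-I and MDA5 cofactors (log2 fold change 4.49 ± 0.58, adjusted p = 0.000359), from a mean of 3.77 to 85.0 CPM, and Trim25 and Zc3hav1, named after their values were seen, were the other cofactors called. Irf7, the interferon-inducible transcription factor downstream of MAVS, rose from 4.80 to 464 CPM (6.6 ± 1.04, adjusted p = 0.0011), whereas Irf3, its constitutive relative, differed by 0.18 ± 0.13. Among the 13 adaptors and kinases that MAVS recruits, Azi2 rose by 0.64 ± 0.16 and Ikbke differed by 0.49 ± 0.24. Nlrx1, a mitochondrial inhibitor of MAVS, was the 1 of 8 inhibitors to rise (0.84 ± 0.16, adjusted p = 0.00489), and Tax1bp1 differed by 0.37 ± 0.12.

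Of the 5 listed death partners of ZBP1, 1 was called higher at day 3, where 5.19% of all genes were. Ripk3, the kinase that ZBP1 engages, rose by 0.78 ± 0.19 on the log2 scale (adjusted p = 0.0189), and Mlkl, which ruptures the membrane downstream, differed by 0.84 ± 0.38 without passing (adjusted p = 0.21). None of the 6 PKR partners and eIF2α genes and none of the 3 other eIF2α kinases was called with edgeR at day 3. Ppp1r15a, a phosphatase subunit that reverses eIF2α phosphorylation, differed by 0.95 ± 0.30, the PKR inhibitor Dnajc3 by -0.40 ± 0.15, Eif2ak1 by 0.19 ± 0.10 and Eif2ak3 by -0.12 ± 0.12. Dicer1 and Adarb1, among 5 other genes for proteins that bind or edit double-stranded RNA, differed by -0.32 ± 0.14 and 0.17 ± 0.28. Of the endosomal sensors, Tlr3 rose by 1.43 ± 0.40 and Tlr8 differed by -0.50 ± 0.23. Ifnb1 was the only 1 of 7 listed interferon genes to pass the filter on low counts, with no more than 44 counts in any time-course library. At day 3 it was at a mean of 1.5 CPM in cKO and 0.0227 CPM in WT, a difference of 5.77 ± 1.59 on the log2 scale (edgeR, adjusted p = 0.035). With WT close to 0, it can have passed the filter only through libraries where it was high. Its call is therefore not separate support for a difference.

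At day 8, without IFNγ, Zbp1 alone was called between the genotypes (0.505% of the 13075 genes tested were called higher). It was at 13.3, 16.4 and 9.72 CPM in WT and at 62.9 and 72.5 CPM in cKO, with no overlap and a log2 fold change of 2.37 ± 0.26 (adjusted p = 0.00348). Without cKO replicate 2 the value was 2.27 and the call was lost (adjusted p = 0.0501). Ddx58 was at 87.3, 76.8 and 74.0 CPM in WT and at 184 and 185 CPM in cKO (1.22 ± 0.26, adjusted p = 0.0831). The groups of Ifih1, Dhx58, Eif2ak2 and Adar did not overlap either, so that 6 of the 7 genes lay higher in both cKO libraries than in any WT library, as did 18% of all genes. DESeq2 called 3 of the 7, and edgeR called 6 on the 2 untreated groups alone or with no filter on low counts. The shares of all genes called in these 3 fits are not reported here. Mavs was at 38.5, 36.2 and 39.4 CPM in WT and at 31.3 and 36.6 CPM in cKO.

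IFNγ, the cytokine that activates macrophages through its own receptor, raised 6 of the 7 genes in WT BMDMs within 12 h (20% of all genes were called higher). Zbp1 went from the values above to 485, 570 and 528 CPM, a log2 fold change of 5.33 ± 0.28 (adjusted p = 6.65e-07), and ranked 97 among the genes tested. Ifih1 went from 53.1, 47.5 and 42.1 CPM to 363, 501 and 320.4 CPM (3.05 ± 0.35). Treated and untreated libraries did not overlap for any of the 6, which was so for 31.5% of all genes. Dhx58 rose by 2.75 ± 0.19, Eif2ak2 by 2.24 ± 0.28, Adar by 1.89 ± 0.23 and Ddx58 by 1.81 ± 0.24, with adjusted p of at most 0.000245. Mavs, at 38.7, 37.2 and 43.0 CPM with IFNγ, differed by 0.06 ± 0.12.

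In cKO BMDMs IFNγ also raised the 6 genes (17.2% of all genes were called higher). The log2 fold changes were 1.71 ± 0.29 for Ddx58, 2.52 ± 0.42 for Ifih1, 1.67 ± 0.22 for Dhx58, 1.34 ± 0.33 for Eif2ak2, 3.08 ± 0.30 for Zbp1 and 1.49 ± 0.27 for Adar. The 2 treated libraries were far apart: replicate 1, the shallowest of the series with 3614967 counts, held 398 CPM of Ddx58, 304 of Ifih1 and 418 of Zbp1, and replicate 2 held 809.8, 879.9 and 722 CPM. In replicate 1, 57.1% of reads were unmapped, against 12.6% to 18.3% in the other day 8 libraries used, and its TMM factor of 0.46 was the lowest of that experiment. Replicate 2 was the highest day 8 library for each of these 3 genes. Without it the Ifih1 log2 fold change was 1.53 and that of Ddx58 1.08, both still called, and that of Eif2ak2 was 0.61 (adjusted p = 0.0584). Without cKO day 8 replicate 1 or replicate 2, Eif2ak2 was also no longer called (adjusted p 0.0593 and 0.0979). With edgeR fitted on these 4 libraries alone only Zbp1 and Dhx58 were called (adjusted p 0.02 and 0.0407), with the 6 fold changes nearly as above. With the contradictory libraries placed by title none was called, at log2 differences of 0.11 to 0.66. Placed so, the library counted as treated held 45.2 CPM of Zbp1 and the one counted as untreated 625 CPM. On the same scale, the assigned cKO libraries held 63.7 to 73.3 CPM without and 423 to 731 CPM with IFNγ. Values with placement by library name are not reported here for this comparison. Stromal genes, all 4 of which passed the filter, summed to between 52.9 and 319 CPM in the 2 assigned treated cKO libraries. In treated WT libraries they summed to between 8.58 and 50.3 CPM, and their part in the spread was not tested.

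**Figure D2:**
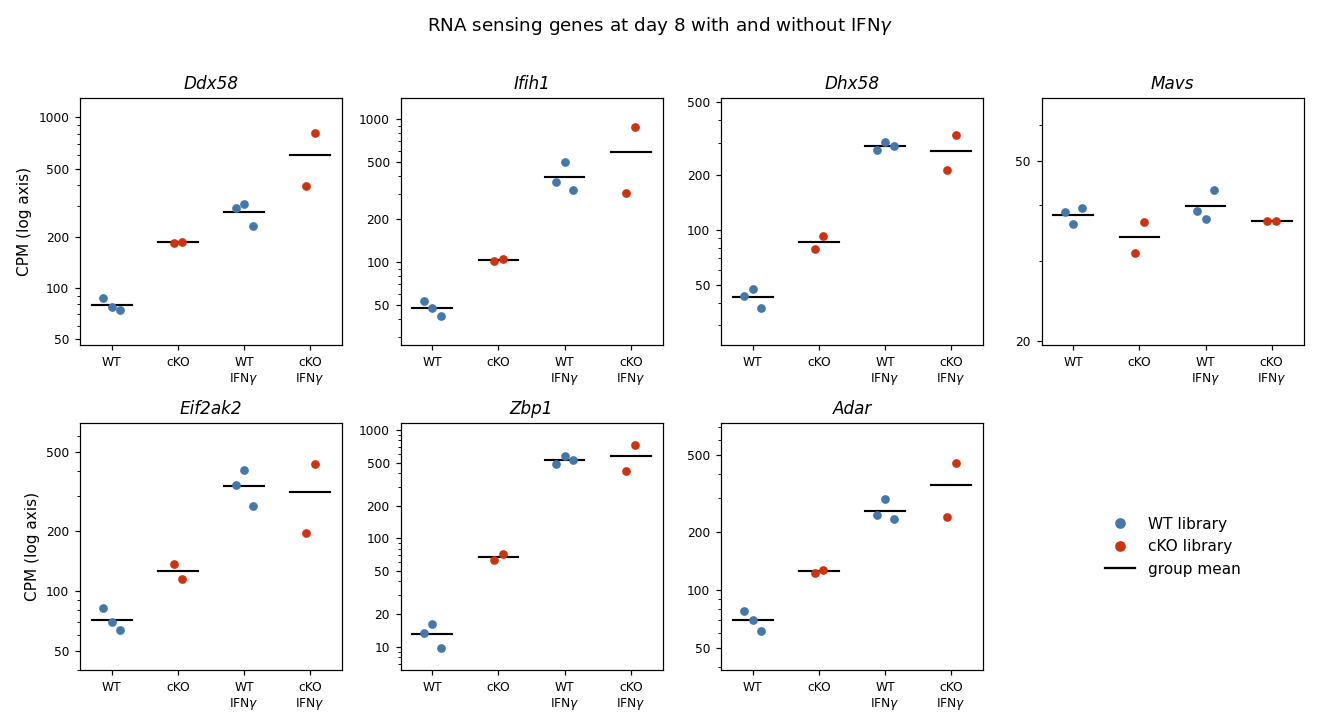
CPM (log axis) of each gene in each day 8 library without and with 12 h of IFNγ (blue, WT, 3 libraries a group; red, cKO, 2 libraries a group; black bar, group mean). The treated libraries lie above the untreated ones for all genes but Mavs, and the treated cKO pair is spread from 398 to 809.8 CPM for Ddx58.

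With IFNγ in both genotypes, Ddx58 alone was higher in cKO (log2 fold change 1.13 ± 0.26, adjusted p = 0.0395; 3.2% of genes were called higher). Its values were 293, 309.7 and 229 CPM in WT, all below both cKO libraries (15.8% of genes did the same). The call was lost without WT replicate 1, 2 or 3 at values of 1.01 to 1.21 (adjusted p between 0.0753 and 0.153), on the 2 treated groups alone (1.15, adjusted p = 0.239), with the replicate number as a block (1.01, adjusted p = 0.125) and with the contradictory libraries placed by title (0.70, adjusted p = 0.668), and without cKO replicate 2 the value was 0.49 and still called. In the placement by title, the library counted as treated held 148 CPM of Ddx58, against 403 to 820 CPM in the assigned treated cKO libraries. These values are on the scale of all day 8 libraries. Zbp1 differed by 0.12 ± 0.25, Dhx58 by -0.08 ± 0.20 and Eif2ak2 by -0.09 ± 0.30, and all 3 overlapped. Whether IFNγ acted by a different factor in cKO was tested as an interaction, and edgeR called 0 of the 7 and 0 of all 13075 genes, with 2 of the 7 (8.45% of all genes) at an unadjusted p under 0.05 and 1, Zbp1, called by DESeq2. The interaction was -2.25 ± 0.37 for Zbp1 (adjusted p = 0.101), an estimate of a smaller rise in cKO that did not pass. Without cKO IFNγ replicate 2, 6 were called, each with the smaller rise in cKO, and without replicate 1 only Zbp1 was. The 4 day 8 comparisons share libraries, so they are not independent of each other.

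Peritoneal macrophages, taken from the mouse without culture, showed differences in the direction of the BMDMs that did not pass. None of the 7 was called with edgeR (0.591% of the 12361 genes tested were called higher), 6 had an unadjusted p under 0.05 (9.2% of all genes did), and DESeq2 called 3, Ddx58, Dhx58 and Eif2ak2. Ddx58 was at 45.4, 57.5 and 62.3 CPM in WT and at 80.7, 87.8 and 123 CPM in cKO (0.82 ± 0.21, 95% interval 0.34 to 1.30). Eif2ak2 was at 16.7, 32.1 and 25.0 CPM in WT and at 40.8, 54.6 and 53.6 CPM in cKO (1.01 ± 0.25, 95% interval 0.44 to 1.58). For 5 of the 7 the groups did not overlap, with cKO the higher, against 8.47% of all genes, and for Zbp1, at 38.3, 71.7 and 38.4 CPM in WT and at 67.6, 73.7 and 134 CPM in cKO, they did. Mavs differed by -0.03 ± 0.15, with an interval of -0.36 to 0.30. The resident macrophage markers Gata6, Timd4 and Cd5l all passed the filter, and the 3 T cell genes summed to between 0.993 and 4.72 CPM in WT and between 5.60 and 14.8 CPM in cKO, whose part was not tested.

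**Figure D3:**
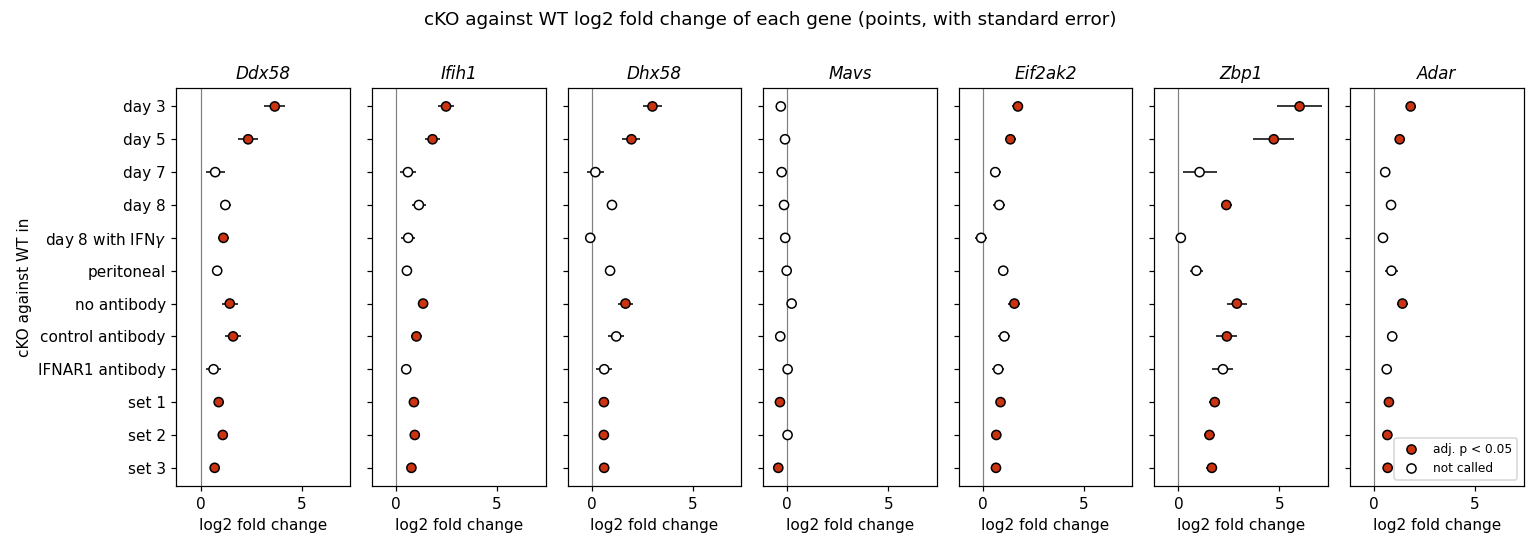
Log2 fold change of cKO against WT (points, with standard error) for each gene in each of 12 comparisons, named on the vertical axis; filled points passed an adjusted p of 0.05. Ddx58, Ifih1, Zbp1 and Adar lie above 0 in all 12, Zbp1 reaches 6.0 at day 3, and Mavs stays between -0.45 and 0.21.

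The antibody experiment asked whether the difference depended on type I interferon reaching its receptor. Without antibody, 6 of the 7 genes were higher in cKO (3.39% of the 17191 genes tested were called higher), and Mavs differed by 0.21 ± 0.16. Zbp1 was at 4.96, 2.78 and 1.62 CPM in WT and at 34.5, 24.3 and 10.7 CPM in cKO (2.89 ± 0.50, adjusted p = 0.00364). Ddx58 was at 31.0, 24.7 and 21.6 CPM in WT and at 91.3, 75.6 and 42.7 CPM in cKO (1.44 ± 0.38, adjusted p = 0.0344). All 6 genes were separated between the genotypes, as were 20.2% of all genes. Dhx58 rose by 1.67 ± 0.39, Ifih1 by 1.33 ± 0.26, Eif2ak2 by 1.56 ± 0.30 and Adar by 1.41 ± 0.25. The calls of Ddx58 and Dhx58 were lost without WT replicate 2 or 3 or without cKO replicate 1 or 2, with log2 fold changes of 1.20 to 1.41 for Ddx58 (adjusted p 0.11 to 0.142) and 1.31 to 1.68 for Dhx58 (adjusted p 0.0575 to 0.0982).

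With the control antibody, Ddx58 (1.61 ± 0.40), Ifih1 (1.0 ± 0.26) and Zbp1 (2.40 ± 0.52) were called higher in cKO (2.88% of genes were), with adjusted p of 0.03, 0.0382 and 0.0146. Ddx58 was at 11.6, 12.5 and 14 CPM in WT and at 45.3, 43.0 and 27.4 CPM in cKO. Dhx58, Eif2ak2 and Adar differed by 1.21 ± 0.39, 1.06 ± 0.30 and 0.90 ± 0.25 without passing (adjusted p 0.0555 to 0.105), and none of these 6 genes overlapped between the genotypes, as was so for 18.3% of genes. Leaving out WT replicate 1 left 1 of the 3 calls, WT replicate 2, WT replicate 3 or cKO replicate 1 left 0, cKO replicate 2 left 1 and cKO replicate 3 left 2. In the other direction, DESeq2 called 6 of the 7, RLE scaling or no filter on low counts 5, and edgeR on the 2 groups alone all 7, Mavs as lower (-0.32, adjusted p = 0.0182). The shares of all genes called under these settings are not reported here. The cKO replicate 2 library was the shallowest of this experiment, with 5295144 counts. Stromal genes summed to between 10.9 and 195 CPM in WT and between 146 and 280.1 CPM in cKO with the control antibody, and their part was not tested.

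With the IFNAR1 antibody, edgeR called 0 of the 7 genes between the genotypes (0.477% of genes were called higher), 3 had an unadjusted p under 0.05 (11.7% of all genes did), and DESeq2 called 1, Zbp1. Zbp1 was at 0.692, 2.32 and 1.39 CPM in WT and at 9.89, 4.25 and 5.53 CPM in cKO (2.20 ± 0.52, adjusted p = 0.0746, 95% interval 1.09 to 3.31). Ddx58 was at 26.6, 16.5 and 11.1 CPM in WT and at 47.9, 18.2 and 18.2 CPM in cKO, which overlapped (0.64 ± 0.38, 95% interval -0.18 to 1.45). Dhx58 differed by 0.62 ± 0.38, Ifih1 by 0.49 ± 0.26, Eif2ak2 by 0.76 ± 0.30, Adar by 0.63 ± 0.25 and Mavs by 0.01 ± 0.16. The groups of Ifih1, Eif2ak2 and Zbp1 did not overlap, which held for 4.19% of all genes with cKO the higher. Adar was called without WT replicate 3 (0.97, adjusted p = 0.0388).

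The direct comparisons between antibodies gave no call among the 7 with edgeR. In cKO, IFNAR1 against control antibody gave -0.93 ± 0.25 for Adar (adjusted p = 0.0508), -0.82 ± 0.26 for Ifih1 (adjusted p = 0.0834), -0.77 ± 0.30 for Eif2ak2, -0.65 ± 0.48 for Zbp1, -0.45 ± 0.38 for Ddx58 and -0.37 ± 0.38 for Dhx58, where 1.69% of genes were called lower, 3 of the 7 and 19.4% of all genes had an unadjusted p under 0.05 and DESeq2 called 2. Adar went from 104, 100.1 and 82.7 CPM to 45.8, 50.2 and 54.7 CPM without overlap (14.5% of genes did the same), and its call passed with 7 of the alternative settings. In WT the same contrast gave differences between -0.66 and 0.52, with 0 called by edgeR (9.89% of all genes were), 1 at an unadjusted p under 0.05 (32.8% of all genes), 0 called by DESeq2, and Adar (-1.0, adjusted p = 0.00695) called without WT IFNAR1 replicate 3. The interaction between antibody and genotype called 0 of the 7 and 0 of all genes with edgeR, with 0 of the 7 (5.67% of all genes) at an unadjusted p under 0.05 and 0 called by DESeq2, so a different effect of the antibody in cKO was not detected.

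The control antibody itself was compared with no antibody. In WT, Ddx58 was at 31.0, 24.7 and 21.6 CPM without and at 11.6, 12.5 and 14 CPM with the control antibody (-1.02 ± 0.39, adjusted p = 0.104), with no overlap, as was so for 20.6% of genes in that direction. With the replicate number as a block, which pairs these libraries, Ddx58 was called (-0.96, adjusted p = 0.0407), while the fit without it called 0 of the 7 with edgeR (8.9% of all genes were called), 1 had an unadjusted p under 0.05 (29.2% of all genes did), and DESeq2 called 0. In cKO all 7 differences were below 0, from -1.16 ± 0.48 for Zbp1 to -0.24 ± 0.16 for Mavs, with 0 called by edgeR (1.46% of all genes were) and by DESeq2 and 3 at an unadjusted p under 0.05 (12% of all genes). The 6 antibody groups enter several of these contrasts each.

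**Figure D4:**
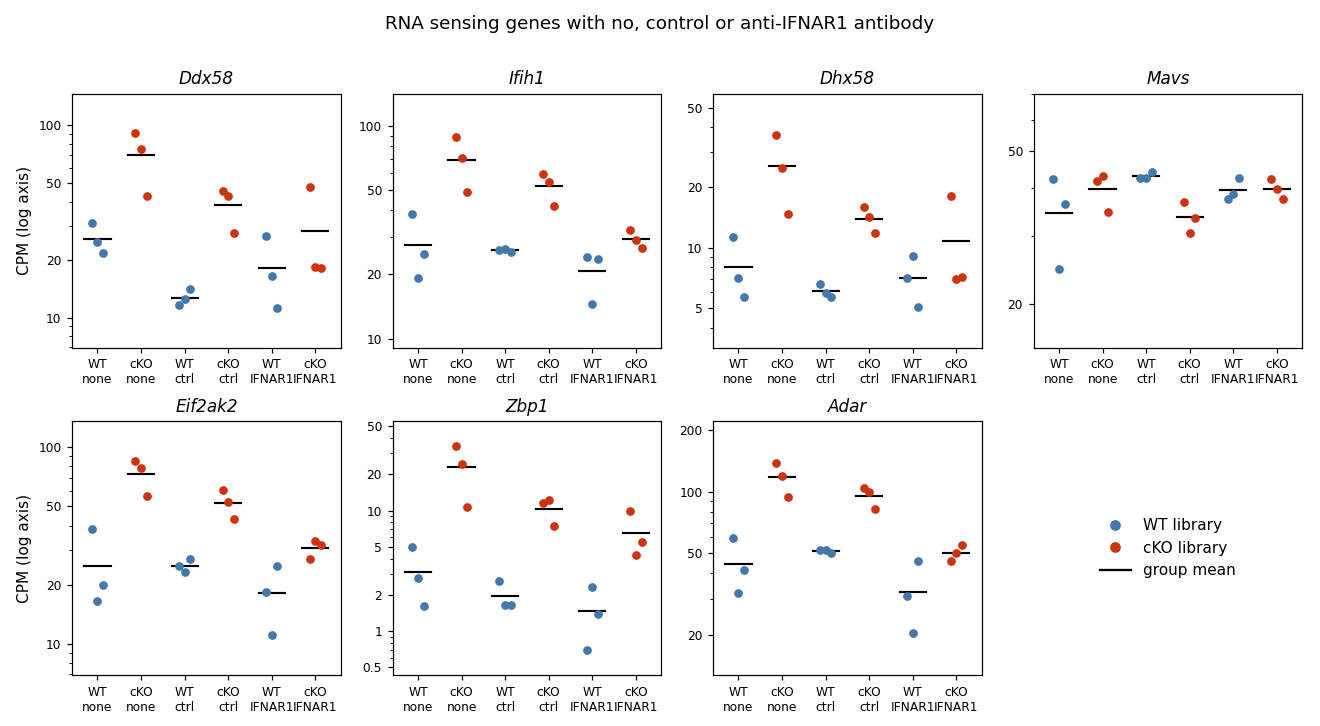
CPM (log axis) of each gene in each library of the antibody experiment (blue, WT; red, cKO; black bar, group mean; 3 libraries a group). With the IFNAR1 antibody the cKO points of Ddx58 come down to 18.2 CPM in 2 libraries, inside the WT range, and those of Zbp1 stay above the WT points.

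In the 3 further sets of BMDMs, all without IFNγ or antibody, 6 of the 7 genes were called higher in cKO in each set. In these sets 18%, 9.74% and 16.9% of the 18083 genes tested were called higher, respectively. Zbp1 had log2 fold changes of 1.80 ± 0.28, 1.53 ± 0.27 and 1.65 ± 0.27, Ddx58 of 0.89 ± 0.13, 1.09 ± 0.13 and 0.69 ± 0.13, and Ifih1 of 0.88 ± 0.12, 0.92 ± 0.12 and 0.75 ± 0.12. Dhx58 ranged from 0.60 to 0.61, Eif2ak2 from 0.65 to 0.87 and Adar from 0.66 to 0.74. Mavs was at 60.7, 58.4 and 63.0 CPM in WT and at 46.6, 42.9 and 51.6 CPM in cKO of set 1 (-0.37 ± 0.07, adjusted p = 0.000218), and at 57.5, 50.3 and 51.5 against 36, 38.7 and 41.9 CPM in set 3 (-0.45 ± 0.07, adjusted p = 2.07e-05). It was called lower in cKO in both, where 16.7% and 18% of genes were called lower. In set 2 it was at 50.2, 48.7 and 49.6 CPM in WT and at 50.1, 51.0 and 48.5 CPM in cKO (0.01 ± 0.07, adjusted p = 0.947). Other RNA sensing genes moved both ways in these deeper libraries, for example 17 higher and 11 lower of 61 in set 1. Markers of other cells moved with genotype in the same libraries. The 6 neutrophil genes summed to between 45.0 and 81.5 CPM in WT and between 145 and 213 CPM in cKO of set 1, to between 53.0 and 88.4 and between 147 and 239 CPM in set 3, and overlapped in set 2. The 2 dendritic cell genes summed to at most 2.66 CPM in any WT library and to between 2.69 and 8.78 CPM in cKO, and the B cell sums of cKO lay above those of WT within each set, at 5.45 to 13.5 against 2.53 to 6.80 CPM over all sets. Plasmacytoid dendritic cell genes, of which 2 of 3 passed the filter, summed to 1.82 to 2.56 CPM in WT and 3.38 to 5.58 CPM in cKO of set 1. In set 3 they summed to 1.75 to 2.96 and 3.18 to 6.04 CPM, and they overlapped in set 2. Stromal sums were 10.7 to 14.9 CPM in WT and 22.7 to 32.1 CPM in cKO of set 3, and overlapped in sets 1 and 2. The part of these markers in the result was not tested.

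The double KO BMDMs asked whether the cKO difference needed DNA sensing through STING, RNA sensing through MAVS, or IRF7. Tmem173, which encodes STING, was at 5.01 to 6.10 CPM in the Sting double KO against 68.2 to 91.6 CPM in the cKO sets, and Irf7 was at 98.3 to 112 CPM in the Irf7 double KO against 249 to 470.2 CPM. Irf7 in that line was not below the WT sets, which held 36.6 to 155 CPM (log2 difference 0.36 ± 0.21, edgeR adjusted p = 0.207). Mavs was at 37.5, 37.9 and 37.2 CPM in the Mavs double KO, near the cKO sets at 36 to 51.6 CPM, and since counts cover the whole gene, neither this value nor that of Irf7 checks the deleted exons. The study reports verifying the Mavs and Irf7 deletions by genomic PCR, qRT-PCR and RNA-seq tracks. The labels do not tie a double KO to 1 of the 3 sets. In the order of the series, the Sting line follows set 1, the Mavs line set 2 and the Irf7 line set 3. Whether these are matched controls is not stated. Each line was therefore compared with the mean of the 3 cKO sets and of the 3 WT sets, and the 2 comparisons share the double KO libraries.

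In each of the double KOs 6 of the 7 genes were called higher than in WT. Against the WT sets, where 20.5%, 21.8% and 14.8% of genes were called higher in the Sting, Mavs and Irf7 double KO, Zbp1 had log2 fold changes of 2.82 ± 0.20, 1.43 ± 0.20 and 2.20 ± 0.20, Ddx58 of 1.32 ± 0.10, 1.04 ± 0.10 and 1.13 ± 0.10, and Ifih1 of 1.07 ± 0.09, 0.97 ± 0.09 and 1.01 ± 0.09. Dhx58 ranged from 0.62 to 1.15, Eif2ak2 from 0.57 to 0.84 and Adar from 0.70 to 0.99. In all 3 lines the libraries of these 6 genes lay above every WT set library, as did 9.27%, 8.56% and 4.88% of all genes. Mavs was lower than in WT in the Mavs double KO (-0.53 ± 0.06) and in the Irf7 double KO (-0.41 ± 0.06), where 20.8% and 16.6% of genes were called lower, and differed by -0.04 ± 0.06 in the Sting double KO.

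Against the cKO sets, the 3 double KOs gave different patterns of calls. In the Sting double KO 5 of the 7 genes were higher still (18.9% of genes were called higher): Zbp1 by 1.15 ± 0.20, at 111, 139 and 141 CPM against 42.6 to 75.5 CPM, Dhx58 by 0.54 ± 0.11, Ddx58 by 0.42 ± 0.10, Adar by 0.30 ± 0.06 and Mavs by 0.23 ± 0.06. Ifih1 and Eif2ak2 differed by 0.22 ± 0.09 and -0.16 ± 0.08. Against set 2 alone Ddx58, Mavs and Adar were no longer called, Zbp1 and Dhx58 were, and Eif2ak2 was called lower (-0.31, adjusted p = 0.0122). The stromal genes summed to between 154 and 189 CPM in this line against 22.7 to 68.9 CPM in the cKO sets, and their part was not tested.

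In the Mavs double KO only Mavs was called, with -0.26 ± 0.06 (adjusted p = 0.00439; 3.24% of genes were called lower), and not against set 3 alone (-0.05, adjusted p = 0.671). The other 6 genes differed by -0.23 to 0.15, for example Ddx58 at 166, 185 and 149 CPM against 121 to 198 CPM in the cKO sets, with a 95% interval of -0.07 to 0.36. Stromal genes summed to between 79.95 and 288 CPM in this line, and their part was not tested. In the Irf7 double KO edgeR called 0 of the 7 (4.36% of all genes were called higher), 4 had an unadjusted p under 0.05 (23.8% of all genes did), and DESeq2 called 0. Zbp1, at 96.0, 90.2 and 69.0 CPM, differed by 0.54 ± 0.21 (adjusted p = 0.102, 95% interval 0.11 to 0.96), and it was called without cKO set 2 replicate 2 (0.64, adjusted p = 0.0408). H3f3b stood at 71.9 to 147 CPM in the Irf7 double KO and at 187 to 220.3 CPM in the cKO sets. Against the mean of the 3 cKO sets, Mavs in the Mavs double KO was the only one of the 7 genes called lower in a double KO.

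**Figure D5:**
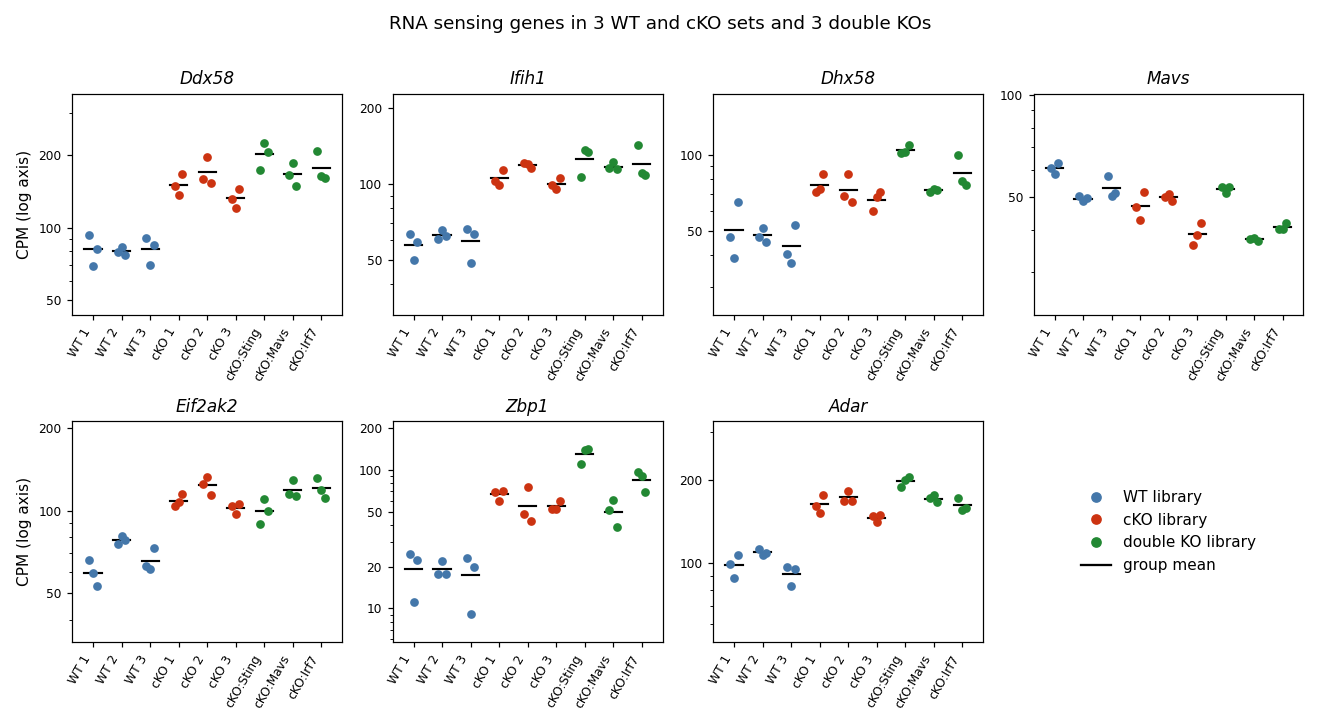
CPM (log axis) of each gene in each library of the 3 WT sets (blue), the 3 cKO sets (red) and the 3 double KO lines (green), with the group mean as a black bar (3 libraries a group). Zbp1 is at 111 to 141 CPM in the Sting double KO, above all cKO set libraries, and Mavs is at 37.2 to 37.9 CPM in the Mavs double KO.

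Over the 12 comparisons of cKO with WT, Ddx58 and Zbp1 were called higher in 8 each, Ifih1 in 7, and Dhx58, Eif2ak2 and Adar in 6 each, with none of them called lower. Mavs was called higher in 0 and lower in 2 of the 12 with edgeR. Median log2 fold changes over the 12 were 2.0 for Zbp1, 1.11 for Ddx58, 0.90 for Ifih1, 0.84 for Eif2ak2, 0.79 for Adar, 0.76 for Dhx58 and -0.14 for Mavs. Of the listed pathway genes, Irf7 was called higher in 11 of the 12, all but day 7, and no other gene of the list reached this. Ddx60 was called higher in 9, Trim25, named after its values were seen, in 6 and Ripk3 in 5. Within a single 1 of the 12 comparisons, 0.477% to 18% of all genes were called higher. The share of all genes called in as many comparisons is not reported here for any of these counts.

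The likeness of the 7 genes was described over the 27 group means of log2 CPM, centred within each experiment. The 15 pairs among the 6 genes other than Mavs had Pearson correlations between 0.902 and 0.983, and the 6 pairs with Mavs lay between -0.157 and -0.0632. Among 7303 genes (7304 for Zbp1) with the needed level, those most like Ddx58 were Ddx60 (0.992), Sp100 (0.974) and Ly6e (0.971), those most like Ifih1 were Parp12 (0.985), Stat2 and Herc6, and those most like Dhx58 were Sp100 (0.983), Herc6 and Parp9. Zbp1 was most like Dhx58 (0.983), Ifi204 and Sp100. Parp14 (0.976) and Adar were among the 3 genes most like Eif2ak2, and Fbxw17 (0.982) and Gm20559 among the 3 most like Adar. The genes most like Mavs, Pcyox1 (0.818), Tbc1d14 and Ptov1, were less like it. The points share their experiments and the depth of their libraries, so these values describe the groups and are not tests.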

How the data were processed

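Counts per gene were deposited by the authors for each library; per the labels, reads were trimmed with cutadapt and aligned with STAR to mm10, and the unstranded count column was used here because both strand columns held nearly equal totals. The study's methods name the CCBR pipeliner for these steps, and the versions of cutadapt and STAR are not given in the sources used here. The labels name rRNA depletion for every library, whereas the study's methods describe another kit for peritoneal cells. No normalized values were used.

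Each of the 5 experiments was fitted on its own with edgeR 4.0.16 in R 4.3.3: genes were kept by filterByExpr (minimum count 10, total 15), TMM-scaled, and tested with the quasi-likelihood test over all groups, with Benjamini-Hochberg adjustment over all genes and a threshold of 0.05. CPM used the TMM-scaled library sizes. Libraries ranged from 3614967 to 45564225 counts, which limits precision in the shallowest. DESeq2 1.42.0, RLE scaling, other filters, strand columns, subsets of groups and left-out libraries were alternatives, and the scripts were tested on simulated data. Tables scaled separately were not tested against each other.

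Replicate numbers come from the labels. Same-numbered libraries deviated together (every correlation over 0.1, lowest 0.126, highest 0.467) between WT and cKO at days 3, 7 and in peritoneal cells, between days 3 and 7 in cKO, for IFNγ in WT and for control against no antibody in WT. Differently numbered libraries reached 0.214 between WT and cKO at day 3, 0.359 at day 7 and 0.339 between days 3 and 7 in cKO. These exceed the lowest same-numbered values of 0.126, 0.153 and 0.138, so the numbers do not clearly pair the libraries there. At day 5 same-numbered values of WT and cKO went down to -0.023.

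Named were the 7 genes, the targeted genes, the 2 genes of each pathway list with the largest day 3 change and any listed gene called in at least 11 of the 12 genotype comparisons, and the 3 genes most like each of the 7; values of some of these are not reported here. The 7 genes and the lists were chosen with earlier results of these data known. Of the 81 libraries, 2 with contradictory labels entered no comparison. The motif AANNGAAA and the alternative without replicate 1 of every group were chosen after the data were seen.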

Additional observations from a re-analysis of the deposited data

Results flagged for a closer look

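A pair of day 8 cKO libraries entered no comparison, because for each the title and the library name disagreed on IFNγ, and both held levels above all 3 untreated WT day 8 libraries. In the library titled as treated but named as untreated, Ddx58 was at 148 CPM (WT day 8 at most 88.4, on the scale of all 12 day 8 libraries), Ifih1 at 87.8 CPM (53.8), Dhx58 at 69.7 CPM (48.2), Eif2ak2 at 112 CPM (82.8), Zbp1 at 45.2 CPM (16.6) and Adar at 114 CPM (78.9). Its Mavs level of 32.4 CPM was below the WT minimum of 36.7 CPM. In the library titled as untreated but named as treated, Ddx58 was at 766 CPM, Ifih1 at 854 CPM, Dhx58 at 325 CPM, Mavs at 40.2 CPM (WT day 8 at most 39.9), Eif2ak2 at 439 CPM, Zbp1 at 625 CPM and Adar at 436 CPM. On the same scale the assigned cKO libraries without IFNγ held 186 to 188 CPM of Ddx58 and 63.7 to 73.3 CPM of Zbp1, and those with IFNγ held 403 to 820 CPM of Ddx58 and 423 to 731 CPM of Zbp1. These values were not used to place either library.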

How the results depend on the processing

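Of 3164 values of the 7 genes under an alternative, 2900 kept direction and side of the threshold, 82 lost a call, 115 gained one and 67 turned sign, none of the last called in either analysis. Except where stated, the cause was not tested. Depth limits the values of low genes such as Zbp1 in WT at day 3, with 15 to 25 counts, and cKO held 2 libraries a group at day 8.

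Counts of the 7 genes called moved as follows. Here and above, the share of all genes called under each alternative is not reported. With no filter on low counts they were 5 for the change of the cKO effect from day 3 to day 7 (0 as reported), 6 for day 8 (1), 2 for the IFNγ interaction (0), 5 for peritoneal cells (0), 5 for the control antibody (3), 1 each for IFNAR1 against control antibody in cKO, cKO against WT with the IFNAR1 antibody and control against no antibody in WT (0 each), and 3 for the Irf7 double KO against cKO (0). With DESeq2 they were, in that order and without the last pair, 5, 3, 1, 3, 6, 2 and 1. With RLE they were 5 for the control antibody and 1 for IFNAR1 against control antibody in cKO, which was also 1 with a mean of at least 1 CPM and with the strand column. With only the groups compared they were 5 for the day 7 against day 3 change, 0 for day 5 (6), 6 for day 8, 0 for day 8 with IFNγ (1), 2 for IFNγ in cKO (6), 7 for the control antibody, 1 for IFNAR1 against control antibody in cKO, 1 for control against no antibody in WT and 1 for the Irf7 double KO. Placing the contradictory libraries by title gave 0 for day 8, 0 with IFNγ, 0 for IFNγ in cKO and 0 in WT (6), and by library name 3 for day 8 and 1 for the IFNγ interaction. Set 2 alone as the reference gave 1 for the Irf7 and 3 for the Sting double KO (5). Without replicate 1 of every group they were 6 for the day 7 against day 3 change, 5 at day 7 (0) and 0 for day 7 against day 3 in cKO (1).

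With a replicate block they were 5 for the day 7 against day 3 change, 0 for day 8 with IFNγ, 2 for IFNAR1 against control antibody in cKO, 1 for cKO against WT with the IFNAR1 antibody and 1 for control against no antibody in WT. In the 3 of these other than the first and the last the numbers do not pair the libraries by the correlation used, and in the first they do not clearly pair them. In the remaining comparisons the block moved no count by more than 1.5 times.

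Leaving out 1 library at a time gave 0 to 2 for the day 7 against day 3 change, 0 to 1 for day 7 against day 3 in cKO, 0 to 6 for day 5, 0 to 1 for day 7, 0 to 1 for day 8, 0 to 6 for the IFNγ interaction, 0 to 3 for day 8 with IFNγ, 0 to 2 for the control antibody, and 0 to 1 for IFNAR1 against control antibody in WT, cKO against WT with the IFNAR1 antibody and the Irf7 double KO against cKO. Where cKO at day 8 is left with 1 library, that library is assumed to vary like the other groups.

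Log2 differences that turned sign with no filter were Mavs with IFNγ in cKO (-0.0043), its IFNγ interaction (-0.055), Mavs in cKO against WT with the IFNAR1 antibody (-0.0089) and Eif2ak2 in control against no antibody in WT (-0.0497), the last also with RLE (-0.0027), a mean of 1 CPM (-0.0022) and DESeq2 (-0.0026). With the strand column they were Mavs with the IFNAR1 antibody (-0.092), the antibody interaction of Zbp1 (0.52) and Dhx58 in the Mavs double KO against cKO (-0.022), the last also with only the groups compared (-0.00087). With a replicate block Zbp1 at day 8 with IFNγ was -0.017. By title Mavs with IFNγ in cKO was -0.031, its interaction -0.091 and Zbp1 at day 8 with IFNγ -0.42, and by library name Dhx58 and Eif2ak2 at day 8 with IFNγ were 0.0065 and 0.078 and the Ddx58 interaction 0.13. Against set 1 alone they were Dhx58 in the Mavs double KO (-0.075) and Adar in the Irf7 double KO (-0.013), against set 3 alone Mavs in the Irf7 double KO (0.072), and against set 2 alone Mavs in the Sting double KO against WT (0.092), Ddx58 (-0.0298), Ifih1 (-0.016), Dhx58 (-0.0067), Eif2ak2 (-0.054) and Adar (-0.013) in the Mavs double KO and Eif2ak2 (-0.037) and Adar (-0.096) in the Irf7 double KO.

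Leaving out 1 library at a time spanned 0 for Mavs in the day 7 against day 3 change (-0.047 to 0.12), Dhx58 from day 3 to day 7 in cKO (-0.12 to 0.031) and at day 7 (-0.11 to 0.81), Mavs with IFNγ in WT (-0.0062 to 0.11), the IFNγ interaction of Mavs (-0.047 to 0.15), Ddx58 (-0.73 to 0.37), Ifih1 (-1.53 to 0.084) and Adar (-0.98 to 0.036), day 8 with IFNγ for Eif2ak2 (-0.81 to 0.39), Dhx58 (-0.46 to 0.22), Ifih1 (-0.40 to 1.18), Zbp1 (-0.36 to 0.48) and Adar (-0.13 to 0.86), Mavs in peritoneal cells (-0.079 to 0.0042), control against no antibody in WT for Ifih1 (-0.28 to 0.23) and Eif2ak2 (-0.22 to 0.45), cKO against WT with the IFNAR1 antibody for Mavs (-0.031 to 0.0703) and Dhx58 (-0.0015 to 0.85), the antibody interaction of Zbp1 (-0.62 to 0.28) and Adar (-0.51 to 0.071), Dhx58 in the Mavs double KO (-0.0097 to 0.053), Adar in the Irf7 double KO (-0.035 to 0.043) and Mavs in set 2 (-0.0068 to 0.0298).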

Other observations

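Ifnb1, which encodes interferon-β, was listed at higher levels in the treated cKO libraries of day 8 than in the other day 8 groups, with a mean of 4.38 ± 3.63 CPM (SD, n = 2) against 0.170 ± 0.182 CPM in treated WT (n = 3), 0.147 ± 0.207 CPM in untreated cKO (n = 2) and 0.0646 ± 0.0567 CPM in untreated WT (n = 3). It did not pass the filter on low counts there, so it was not tested, and no day 8 library held more than 59 counts. The 2 treated cKO libraries were far apart, as the SD shows. Replicate 1 of them held only 3614967 counts over all genes, with 57.1% of reads unmapped. Mlkl, the executor of necroptosis downstream of ZBP1 and RIPK3, rose with IFNγ in WT (log2 fold change 3.23 ± 0.23, edgeR adjusted p = 4.4e-06) and in cKO (2.82 ± 0.28), as did Ripk3 (0.94 ± 0.17 and 0.73 ± 0.21). In the 3 further sets Mlkl was higher in cKO by 0.65 ± 0.12, 0.48 ± 0.12 and 0.57 ± 0.12. Tlr3, the endosomal receptor for double-stranded RNA, was higher in cKO in all 3 of these sets (1.05 ± 0.15, 0.78 ± 0.15 and 0.77 ± 0.15). In these sets 18%, 9.74% and 16.9% of all genes were called higher. The 6 listed endosomal RNA sensing genes did not move as 1: 1 was called higher and 3 lower in set 1. In set 2 the counts were 2 higher and 1 lower, and in set 3 they were 2 higher and 4 lower. Tlr3 also rose with IFNγ in both genotypes (2.16 ± 0.37 in WT and 2.57 ± 0.45 in cKO). Irf7 was higher in cKO with the IFNAR1 antibody (3.22 ± 0.63, adjusted p = 0.026) and in peritoneal macrophages (1.86 ± 0.17, adjusted p = 0.0037).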
